A study of Mus musculus with 12 samples.

Results

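Mouse primordial germ cell-like cells (PGCLCs) carrying EV were compared between day 6 and day 2 of embryoid body culture. PGCLCs are grown in culture as a model of primordial germ cells, which give rise to eggs and sperm in the embryo. The comparison uses the libraries D6-EV1 and D6-EV2 against D2-EV1 and D2-EV2, which is 4 of the 12 libraries of the series, and was made across 12059 genes. The labels write EV and OE without spelling them out. EV is read here as cells with an empty vector and OE as cells overexpressing Tex10, the gene named in the title of the series. Each group used below derives from J1 embryonic stem cells, labelled male, and its cells were picked out of embryoid bodies with antibodies to CD61 and SSEA1, and the treatment field of the EV and OE libraries is empty. The OE libraries at day 2 and day 6 (2 each) served for the same interval in other cells, and the 2 DMSO libraries, given that solvent for 2 days, served as a further day 2 level. The 2 libraries given dTAG13, a compound that brings tagged proteins to degradation, for 2 days entered the shared spread of the fit and the filter on low values. Sorted cells from many embryoid bodies make up a library, and the labels do not say whether the 2 libraries of a group came from separate cultures. The p-values therefore measure the spread between these libraries, which may be technical.

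PGCLCs form when pluripotent cells are exposed to BMP and to supporting cytokines, among them stem cell factor, the ligand of the receptor Kit. Prdm1, Prdm14 and Tfap2c encode the transcription factors that set up this fate, and Nanos3, Dnd1 and Dppa3 are among the genes that follow. As germ cells age in the embryo they lower DNA methylation, keep a part of the pluripotency network and later switch on genes of meiosis and of transposon control.

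Over the 4 days, genes of sugar breakdown and of the response to low oxygen rose, and genes that build ribosomes fell. Kit, Stra8 and Sohlh2 rose, while Nanos3, Dppa3 and Tfap2c fell. Genes were read as FPKM, reads scaled to transcript length and library size. An added 1, inferred from the deposited values, was first taken off. Differences are day 6 minus day 2 in log2(FPKM + 1), in which genes of low level change by less than their FPKM do. A gene was called where limma's adjusted p was below 0.05. Of 12059 genes, 1600 rose (13.3%) and 1263 fell (10.5%), in all 23.7%. Of these, 829 rose and 265 fell by at least 1 on the log2 scale, while the median of all genes was 0.04. Without the first dTAG13 library, in which 2008 genes are listed at 0 against 18 to 127 elsewhere and which widens the spread shared by the fit, 3549 genes rose (29.4%) and 2737 fell (22.7%), among them all 2863 genes called with it. The 2 day 6 libraries did not overlap the 2 day 2 libraries for 73% of all genes, and for each of the 2863. Leaving out any 1 of the 4 EV libraries left between 1138 and 1549 genes called. For this reason counts of list members are followed by their range over those 4 fits. They are to be read beside the 13.3% of all genes that rose and the 10.5% that fell. Genes low in day 2 EV cells entered the test only through a higher level in other libraries. This can favour rises in lists that hold many of them.

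The 2 libraries of a day were close, with a correlation across genes of 0.992 at day 2 and 0.995 at day 6, against 0.955 to 0.963 between days. The number of reads per library is unknown, so the precision of low values cannot be given. At day 2, 127 and 126 genes were listed at 0, and 18 and 19 at day 6. The values of both day 6 EV libraries lay beyond those of all 4 day 2 EV and DMSO libraries for 2773 of the 2863 called genes. That is 96.9%, against 59.2% of all genes tested. The EV libraries alone already did not overlap for each called gene, against 73% of all genes. Part of the gap is therefore fixed by the calling. The DMSO libraries differ from the EV cells on the Y chromosome. The Y-linked genes Ddx3y, Eif2s3y and Uty summed to 54.2 and 70.3 FPKM in day 2 EV cells and 53.2 and 66.2 at day 6, but to at most 0.0045 in the DMSO libraries, although these are labelled male too.

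**Figure D1:**
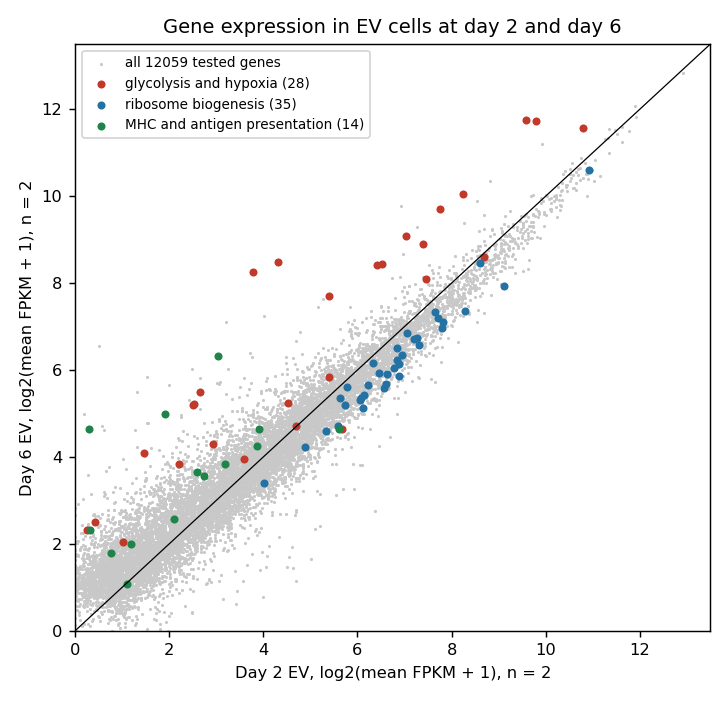
Mean expression of each of 12059 genes in EV cells at day 2 (x axis) and day 6 (y axis), as log2(mean FPKM + 1) of 2 libraries; the line marks equal values. Most of the 28 glycolysis and hypoxia genes lie above the line and the 35 ribosome biogenesis genes lie below it.

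The markers of the label were read first. Itgb3 encodes CD61, one of the sorting markers, and read 0.82 and 0.92 FPKM at day 2 and 2.40 and 1.72 at day 6. The difference of 0.70 did not pass (adjusted p = 0.108). In a limma fit to only the 8 EV and OE libraries it did pass (adjusted p = 0.00396). The first dTAG13 library, which is left out there, lists Itgb3 at 0. Fut4, whose enzyme makes SSEA1, was not analysed here. Pou5f1, the central pluripotency factor that germ cells keep, was high throughout, at 961 and 889 FPKM at day 2 and 780 and 810 at day 6. Prdm14 read 21.6 and 19.3 at day 2 and 26.03 and 23.9 at day 6, and the RNA-binding factor gene Dnd1 read 17.5 and 14.2 and then 23.7 and 19.3. Transcripts of germ cell specification were thus present at both days.

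Markers of other cell types were present, at levels from under 1 FPKM to 135 FPKM in day 2 EV cells, and some moved with the day. Sums below run over all measured members of a list. Of the 8 endothelial and blood genes tested, 4 had at least 1 FPKM in both day 2 EV libraries, and of the 8 cardiac and muscle genes 6. The same held for 1 of the 5 endoderm, 4 of the 9 trophoblast and amnion and 8 of the 9 neural genes. The others passed the filter through libraries in which they were higher, so counts of calls in these lists are not read as a result. Of 8 tested endothelial and blood genes, 4 rose and none fell (0 to 2 with 1 EV library left out), and their summed level went from 30.02 and 37.1 FPKM to 50.2 and 45.5. In that list Egfl7 held most of the sum, at 18.2 FPKM or more in each EV library. Which of the sorted cells express it cannot be told from these libraries. Cardiac and muscle genes (8 tested) summed to 26.9 and 24.9 FPKM at day 2 and 67.5 and 52.1 at day 6, with 4 higher and 2 lower (1 and 2 with any 1 EV library left out). The atrial myosin gene Myl7 held 10.5 and 9.92 and then 47.1 and 34.6 of these sums. Of 5 endoderm genes 3 rose and 1 fell (1 to 2 and 0 to 1 with 1 EV library left out), and their sum was 139 and 135 at day 2 and 82.4 and 103 at day 6. Trh made up most of it, at 135 and 133 and then 68.6 and 92.8, and without Trh the sum was 3.98 and 2.88 and then 13.8 and 9.82. The trophoblast and amnion genes (9 tested, 2 higher, also with 1 EV library left out) summed to 17.9 and 18.7 and then 35.4 and 33.2. Neural genes (9 tested, 2 higher and 3 lower, or 1 and 1 to 2 with 1 EV library left out) summed to 192 and 178 and then 174 and 186. The tubulin gene Tubb3 read 101 and 88.4 and then 65.7 and 63.2, and the rest of that list summed to 90.2 and 89.9 and then 108 and 123. The 1 fibroblast gene tested, Pdgfrb, read 1.07 and 0.45 and then 4.72 and 3.08. Values were available for 10 of 23 endothelial and blood, 8 of 20 endoderm and 10 of 18 trophoblast and amnion markers. They were also available for 9 of 18 neural, 10 of 13 cardiac and muscle and 3 of 12 fibroblast markers. Defining markers such as Cdh5, Ptprc, Sox17, Afp, Cdx2 and Col3a1 had none and were not analysed here. Of 12 transcripts without a poly(A) tail or kept in the nucleus, 4 rose and none fell (2 to 3 and 0 with 1 EV library left out), among them Neat1, which read 5.17 and 4.10 at day 2 and 16.2 and 11.6 at day 6. The part of these cells and RNAs in the results below was not tested. In such bulk samples fewer cells of a type and less RNA per cell cannot be told apart.

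Most genes of sugar breakdown and of the low-oxygen response rose. HIF transcription factors switch on these genes when oxygen is scarce, and glucose is then burned to lactate. Of 28 tested members 23 rose (82.1%, against 13.3% of all genes), 1 fell and the median difference was 1.91. With 1 EV library left out, 19 to 20 rose. The sum over the list went from 5411 and 5090 FPKM to 16381 and 14230.

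Among transporters 3 of the 4 read here rose. Slc16a3, which exports lactate, read 12 and 13.3 FPKM at day 2 and 309 and 301 at day 6. It rose by 4.49 on the log2 scale (SE 0.50, adjusted p = 0.000369). Slc16a1, the related transporter of the same list, read 25.6 and 23.9 and then 25.2 and 25.1 (adjusted p = 0.942). The glucose importer gene Slc2a1 rose from 95.9 and 85.5 FPKM to 383 and 314, and Slc2a3, another importer gene, from 296 and 310 to 1167 and 959. In each of these 3 genes that rose, the lowest day 6 EV value was above the highest day 2 EV value, as in every gene called higher.

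The enzymes of glycolysis themselves were abundant and rose along the pathway. Aldoa, the aldolase gene, went from 758 and 762 FPKM to 3605 and 3330, a difference of 2.19 (SE 0.12, adjusted p = 1.32e-05). Pfkp and Pfkl, which encode the phosphofructokinases of an early committed step, rose by 2.32 (SE 0.17) and 1.99 (SE 0.14). Tpi1 rose by 1.96, Pgk1 by 2.04 and Gpi1 by 1.503. The step from pyruvate to lactate is made by Ldha, which read 900 and 876 at day 2 and 3897 and 2837 at day 6. The hexokinase genes, which trap glucose in the cell, moved less: Hk2 rose by 1.36 and Hk1 by 0.71. Pdk1, whose kinase holds pyruvate back from mitochondria, read 39.5 and 43.2 and then 50.3 and 61.6 FPKM (adjusted p = 0.255).

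Genes known mainly as HIF targets moved with them. Bnip3, which marks mitochondria for removal, read 15.2 and 22.7 FPKM at day 2 and 325 and 386 at day 6, a difference of 4.18 (SE 0.51, adjusted p = 0.000602). Ankrd37 rose from 6.51 and 4.15 to 48.8 and 39.2. P4ha1, a collagen hydroxylase gene, rose by 2.69 (SE 0.37, adjusted p = 0.00111). Egln3 and Egln1, whose products tag HIF proteins for destruction in the presence of oxygen, rose by 2.65 and 2.09. Car9, a carbonic anhydrase gene, was near 0.2 FPKM in both day 2 libraries and read 4.25 and 3.68 at day 6. Vegfa, the vessel growth factor, stayed low, at 1.05 and 0.99 and then 2.83 and 3.38. Hif1a, which encodes the oxygen-regulated HIF subunit, was the 1 member that fell, from 42.1 and 58.2 to 21.1 and 27.2. Its call was lost without the second day 2 library (adjusted p = 0.165) or either day 6 library (0.169 and 0.054). The call of Vegfa was lost without any 1 of the EV libraries, with the largest adjusted p at 0.0945.

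**Figure D2:**
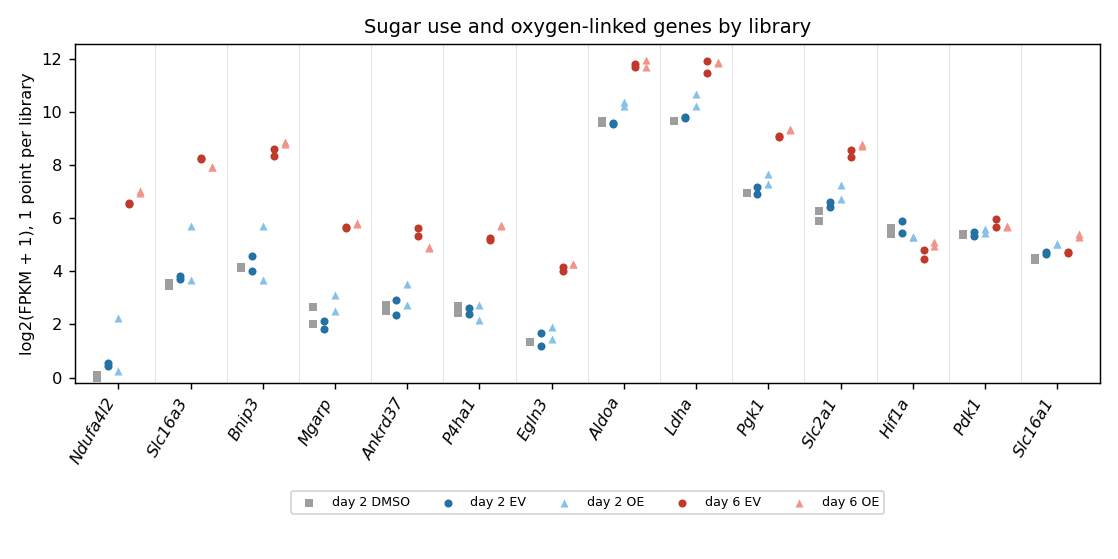
Expression of 14 genes of sugar use and the low-oxygen response, as log2(FPKM + 1), with 1 point per library of the day 2 DMSO, EV and OE groups and the day 6 EV and OE groups. The day 6 points lie above the day 2 points for the first 11 genes, while Hif1a lies lower at day 6 and Pdk1 and Slc16a1 differ little; 1 day 2 OE library is raised for Ndufa4l2, Slc16a3 and Bnip3.

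The promoters of 4 of these genes are printed because HIF factors bind the letters ACGTG, and the members moved together. Each run is the 250 bases before the start of the gene in RefSeq's annotation of GRCm38.p6, 5′ to 3′ on the strand of the gene, with ACGTG or its reverse complement CACGT in capitals. The windows are chr11:120948817-120949066 (plus strand) for Slc16a3, chr7:138909507-138909756 (minus strand) for Bnip3, chr8:45999851-46000100 (minus strand) for Ankrd37 and chrX:106186850-106187099 (plus strand) for Pgk1.
Slc16a3: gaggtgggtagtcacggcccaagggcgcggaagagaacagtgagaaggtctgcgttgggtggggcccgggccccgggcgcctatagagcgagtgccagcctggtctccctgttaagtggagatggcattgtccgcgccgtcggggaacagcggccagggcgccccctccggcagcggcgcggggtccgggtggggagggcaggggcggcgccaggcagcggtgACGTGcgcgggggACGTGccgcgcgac
Bnip3: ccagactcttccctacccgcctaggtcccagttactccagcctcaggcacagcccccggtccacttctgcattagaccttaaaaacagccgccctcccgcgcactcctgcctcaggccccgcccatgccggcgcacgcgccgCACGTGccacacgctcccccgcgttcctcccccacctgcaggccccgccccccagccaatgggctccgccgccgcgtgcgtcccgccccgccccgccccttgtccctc
Ankrd37: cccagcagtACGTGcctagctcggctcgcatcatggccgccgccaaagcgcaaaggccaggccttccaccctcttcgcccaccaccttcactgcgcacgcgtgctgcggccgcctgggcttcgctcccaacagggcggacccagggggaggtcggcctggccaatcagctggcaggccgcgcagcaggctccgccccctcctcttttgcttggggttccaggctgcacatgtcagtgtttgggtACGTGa
Pgk1: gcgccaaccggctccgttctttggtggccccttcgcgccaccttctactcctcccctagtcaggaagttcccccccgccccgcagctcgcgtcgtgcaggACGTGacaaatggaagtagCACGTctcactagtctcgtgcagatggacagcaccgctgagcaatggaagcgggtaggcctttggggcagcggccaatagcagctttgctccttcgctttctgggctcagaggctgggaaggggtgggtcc
These windows hold 2 matches each, which can overlap where the letters CACGTG occur. Of the 26 tested list members with a RefSeq window, 17 hold ACGTG on either strand (65.4%), against 25.7% of the 9186 tested genes with a window. The share was 28.2% among genes that rose and 28.0% among genes that fell. A match describes the letters in this window and is not a binding site.

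Ribosome production moved the other way. Ribosomes are assembled in the nucleolus from RNA made by RNA polymerase I, with the help of snoRNA-protein particles and large assembly complexes. Of 35 tested ribosome biogenesis genes 22 fell (62.9%, against 10.5% of all genes) and none rose. The median difference was -0.65 and the difference was negative for each of the 35. With 1 EV library left out, 11 to 17 fell, and without the first dTAG13 library 31. Summed over the list, the level went from 6345 and 6480 FPKM to 4249 and 4591. Nhp2, a part of the particles that convert uridine to pseudouridine, read 551 and 551 FPKM at day 2 and 240 and 247 at day 6. It fell by 1.18 (SE 0.10, adjusted p = 0.000106). Gar1, a partner in the same particles, fell by 1.04 (SE 0.15), and Fbl, the methyltransferase of the other snoRNA class, by 0.93 (SE 0.10). Ddx21, an RNA helicase gene, fell by 0.98 and Nop16 by 0.97. Polr1b, a subunit of RNA polymerase I, read 68.4 and 63.8 and then 38.9 and 40.4, and Ubtf, which opens ribosomal DNA to that polymerase, read 41.8 and 37.2 and then 23.5 and 22.8. The abundant nucleolar protein genes Npm1 (1937 and 1957 FPKM, then 1526 and 1586) and Ncl (138 and 153, then 89.4 and 118) did not pass (adjusted p = 0.0665 and 0.093).

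Tex10 belongs to the rixosome, a complex that acts in late ribosome maturation and in RNA decay at silent chromatin. Tex10 read 119 and 145 FPKM at day 2 and 65.7 and 81.5 at day 6, and fell by 0.83 (SE 0.15, adjusted p = 0.00339). The day 6 level was near that of the day 2 DMSO libraries, at 61.7 and 56.8. Wdr18, a direct partner, fell by 0.74 (SE 0.13, adjusted p = 0.00381), from 186 and 187 to 107 and 117. Of the 7 members tested, 3 fell and none rose (2 with 1 EV library left out). The third was Mdn1, at -0.67, whose call was lost in each of those fits, with the largest adjusted p at 0.155. Pelp1, Las1l, Nol9 and Senp3 did not pass, with differences of -0.34, -0.40, -0.72 and 0.18. The 3 that fell are 42.9% of the members, against 10.5% of all genes.

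Myc and Mycn fell, while genes of entry into the cell cycle went both ways. Myc, which drives ribosome production in many cells, read 70.4 and 65.2 FPKM at day 2 and 8.92 and 17.2 at day 6, a difference of -2.36 (SE 0.28, adjusted p = 0.000544). Mycn fell by 1.78 (SE 0.22) from 173 and 203 to 48.2 and 60.5. Of 19 tested G1 genes 5 fell and 1 rose (3 to 5 and 0 with 1 EV library left out), with 10 differences above 0 and 9 below and a median of 0.02. The shares were 26.3% lower and 5.3% higher, against 10.5% and 13.3% of all genes. The median was -0.41 over the 15 genes with 5 FPKM or more in 2 libraries. With quantile normalization it was -0.15. The 1 gene that rose was Mycl, the third Myc family member, from 5.02 and 4.35 to 7.96 and 7.65 (adjusted p = 0.037). Ccnd1, a cyclin gene of G1, fell by 1.44, while the inhibitor gene Cdkn1a read 39.7 and 36.9 and then 40.9 and 39.0. Ccne1, which starts replication, fell from 363 and 391 to 157 and 174, a difference of -1.18. The replication machinery otherwise moved little: 5 of 28 genes fell and none rose (1 to 3 fell with 1 EV library left out), with a median of -0.14, which quantile normalization moves to 0.01. Of 26 mitosis genes 2 fell and 1 rose (1 to 2 each with 1 EV library left out). Cdc20, the activator that ends metaphase, fell by 0.87 (SE 0.14) and Cdc25b, a phosphatase that opens mitosis, rose by 1.17 (SE 0.17).

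More of the called early germ cell genes fell than rose, and more of the called later ones rose than fell. Of the early genes 9 of 20 did not pass, and of the later genes 26 of 37. Of 20 tested genes of germ cell specification, 9 fell and 2 rose (5 to 7 and 2 with 1 EV library left out). That is 45% and 10%, against 10.5% and 13.3% of all genes. Nanos3, an RNA-binding protein that protects germ cells from death, read 37.8 and 53.6 FPKM at day 2 and 9.22 and 6.29 at day 6. It fell by 2.42 (SE 0.30, adjusted p = 0.000626), and the groups did not overlap, as in every called gene. Dppa3, a maternal factor that guards methylation marks, fell by 1.64 (SE 0.19) from 28.6 and 27.1 to 7.05 and 9.63. Tfap2c fell by 1.05 (SE 0.19, adjusted p = 0.0035), from 74.8 and 87.2 to 40.1 and 36.7. Prdm1, its partner in specification, read 5.80 and 6.83 and then 4.32 and 4.90 (adjusted p = 0.226). The surface protein gene Ifitm3 fell by 1.11 (SE 0.13), and Rhox9, a homeobox gene of the X-linked cluster, by 2.04 (SE 0.30). Rhox and Ifitm genes have close copies, between which reads may have been divided. Alpl, the alkaline phosphatase long used to stain these cells, read 206 and 181 and then 226 and 189 (adjusted p = 0.615).

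The 2 members that rose were Kit and Tcl1. Kit, the receptor for stem cell factor, read 18.2 and 17.3 FPKM at day 2 and 46.7 and 41.4 at day 6, a difference of 1.26 (SE 0.15, adjusted p = 0.000559). Tcl1, a cofactor of AKT signalling, rose by 0.92 (SE 0.10) from 131 and 121 to 242 and 237.

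Of 37 tested genes of later germ cells and meiosis, 9 rose and 2 fell (5 to 8 and 1 to 2 with 1 EV library left out), and without the first dTAG13 library 21 rose and 9 fell. With that library the shares were 24.3% and 5.4%, against 13.3% and 10.5% of all genes. Of the 37, 29 had at least 1 FPKM in both day 2 EV libraries, so others entered the test through a higher level elsewhere. Sohlh2, a transcription factor of germ cell differentiation, read 9.18 and 7.73 FPKM at day 2 and 64.8 and 63.1 at day 6. It rose by 2.79 (SE 0.15, adjusted p = 1.32e-05). Stra8, which starts meiosis, rose by 2.68 (SE 0.27, adjusted p = 0.00024) from 7.56 and 6.49 to 62.3 and 40.5. For both genes the day 6 values lay above the day 2 values in every EV library, as in every gene called higher. Dazl, an RNA-binding protein of licensed germ cells, read 1.85 and 3.34 and then 4.82 and 5.53 (adjusted p = 0.239). Ddx4 read 3.80 and 5.87 and then 7.56 and 9.60 (adjusted p = 0.0849). Tdrd12, of the machinery that makes small RNAs against transposons, went the other way, from 52.3 and 67.5 to 6.76 and 10.3, a fall of 2.69 on the log2 scale (SE 0.25, adjusted p = 0.000157). Asz1, of the same machinery, was listed at 0 and 0.02 at day 2 and read 1.22 and 0.91 at day 6. Gtsf1, a further member of it, read 2.09 and 1.49 and then 15.1 and 15.6, and its call was lost without any 1 of the EV libraries, with the largest adjusted p of those fits at 0.0896.

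**Figure D3:**
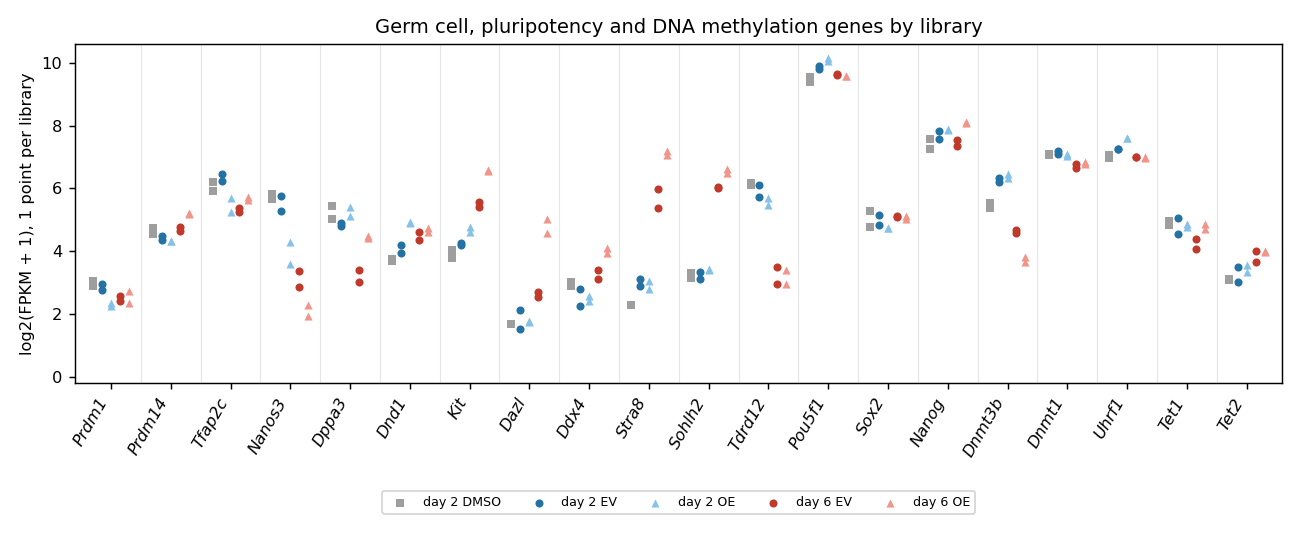
Expression of 20 germ cell, pluripotency and DNA methylation genes, as log2(FPKM + 1), with 1 point per library of 5 groups. In EV cells Nanos3, Dppa3, Tdrd12 and Dnmt3b are lower at day 6, Kit, Stra8 and Sohlh2 are higher, and Pou5f1, Sox2 and Nanog differ little.

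The pluripotency network changed in part. Sox2 read 27.6 and 34.9 FPKM at day 2 and 33.4 and 33.9 at day 6 (adjusted p = 0.743), and Nanog 188 and 227 and then 184 and 163 (adjusted p = 0.206). Of 13 core genes 3 fell and none rose (2 to 3 with 1 EV library left out). The share that fell was 23.1%, against 10.5% of all genes. Utf1, a chromatin protein of pluripotent cells, fell by 1.32 (SE 0.16) from 835 and 748 to 286 and 351. Dppa4 fell by 0.86 (SE 0.11). Of 21 genes of the naive state 5 rose and 3 fell (3 to 4 and 2 with 1 EV library left out). That is 23.8% and 14.3%, against 13.3% and 10.5% of all genes. Tdh, a threonine-degrading enzyme gene that is high in mouse stem cells, fell from 430 and 390 FPKM to 146 and 169. Its difference was -1.37 (SE 0.11). Tfcp2l1 fell by 0.77, and Tbx3 rose by 0.91, from 57.4 and 57.3 to 105 and 112. Zfp42 read 726 and 769 and then 722 and 771, and Esrrb 24.6 and 28.4 and then 28.2 and 25.7.

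Genes of the formative and primed states, through which cells pass before the germ cell fate, also split. Of 17 tested, 3 rose and 5 fell (1 to 2 and 2 to 5 with 1 EV library left out). That is 17.6% and 29.4%, against 13.3% and 10.5% of all genes. Otx2, which holds back germ cell entry, read 3.21 and 3.93 FPKM at day 2 and 14.3 and 15.3 at day 6. It rose by 1.79 (SE 0.23, adjusted p = 0.000769). Grhl2, an epithelial regulator of the formative state, fell by 1.66 (SE 0.24, adjusted p = 0.00133), from 14.6 and 13.6 to 3.60 and 3.99.

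Genes that write DNA methylation were lower or did not pass. Of the 25 methylation genes tested 24% fell and 4% rose, against 10.5% and 13.3% of all genes. Dnmt3b, the methyltransferase that sets new marks, read 79.9 and 72.4 FPKM at day 2 and 22.9 and 24.8 at day 6. It fell by 1.63 (SE 0.13, adjusted p = 5.88e-05). The DMSO libraries stood between, at 40.3 and 45.1. Dnmt3a read 9.35 and 12.3 and then 8.70 and 11.2, and the cofactor gene Dnmt3l 51.3 and 40.1 and then 32.7 and 37.0 (adjusted p = 0.808 and 0.106). Dnmt1, which copies marks after replication, read 144 and 136 and then 99.9 and 109 (-0.42, adjusted p = 0.0152), and its recruiter Uhrf1 152 and 152 and then 127 and 126 (adjusted p = 0.255). Tet1, which oxidises the mark, read 22.4 and 32.2 and then 15.7 and 19.7 (-0.58, adjusted p = 0.0456), while Tet2 read 7.04 and 10.2 and then 11.7 and 15 (adjusted p = 0.0848). The call of Dnmt1 was lost without either day 2 library (0.0977 and 0.053) or the first day 6 library (0.126). That of Tet1 was lost without the second day 2 library (0.296) or either day 6 library (0.286 and 0.0664). In all, 6 of 25 methylation genes fell and 1 rose (2 to 3 and 0 with 1 EV library left out).

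Of 18 tested chromatin genes of H3K9 methylation, a mark of silent chromatin, 12 did not pass, 2 rose and 4 fell (2 and 2 to 3 with 1 EV library left out). Kdm4b and Kdm4c, which remove the mark, rose by 1.40 (SE 0.15) and 0.86 (SE 0.14), Kdm4b from 9.56 and 10.7 FPKM to 29.7 and 27.1. Atf7ip, a partner of the methyltransferase Setdb1, fell by 0.91 (SE 0.16), and Cbx5, which encodes a reader of the mark, by 0.80 (SE 0.14). Of 34 Polycomb genes 4 rose and 4 fell (0 to 2 and 1 to 2 with 1 EV library left out). That is 11.8% each way, near the 13.3% and 10.5% of all genes. Ezh1, a methyltransferase gene of the repressive complex, rose by 0.75 (SE 0.15), from 16.4 and 14.2 FPKM to 28.4 and 24.6, a call lost without the first day 6 library (adjusted p = 0.0663). Cbx8, Kdm6b and Phc2 rose from levels near 1 FPKM or below. Pcgf6, part of the variant complex that silences germ cell genes in stem cells, fell by 1.1 (SE 0.20), from 52.1 and 51.6 to 22.5 and 24.9.

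In the Nodal pathway, which patterns the early embryo, the ligand gene fell while other members rose. Of its 15 tested genes 33.3% rose and 13.3% fell, against 13.3% and 10.5% of all genes. Nodal itself fell by 1.13 (SE 0.18), from 33.2 and 33.4 FPKM to 15.5 and 13.8. Its co-receptor Tdgf1 rose from 428 and 468 to 1252 and 1339, a difference of 1.53 (SE 0.15, adjusted p = 0.00021). The secreted inhibitor gene Lefty2 rose by 0.75 (SE 0.11), from 162 and 171 to 250 and 316. Of 15 tested genes 5 rose and 2 fell (3 and 1 with 1 EV library left out).

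In the BMP pathway, which induces germ cells, the ligand gene Bmp4 fell by 1.07 (SE 0.17), from 56.0 and 65.0 to 23.6 and 33.6. Id3, a direct target, fell by 0.68 (SE 0.09), from 302 and 283 to 180 and 183, while Id1 read 177 and 106 and then 232 and 154 (adjusted p = 0.186). Id2, a further target, rose from 36.2 and 35.8 to 84.0 and 63.0 (adjusted p = 0.0423), a call lost without any 1 of the EV libraries. The ligand gene Bmp7 rose from 0.62 and 0.48 to 3.39 and 2.40, and the homeobox target Msx1 from 0.92 and 0.83 to 4.19 and 4.11. In all, 3 of 19 genes rose and 2 fell (0 to 2 and 2 with 1 EV library left out), or 15.8% and 10.5%, near the shares of all genes. Among 20 genes of FGF signalling 1 rose and 3 fell (0 to 1 and 1 to 3 with 1 EV library left out). That is 5% and 15%, against 13.3% and 10.5% of all genes. The 1 that rose was the receptor gene Fgfr4, from 0.52 and 0.83 to 3.09 and 2.64. Fgfr2, another FGF receptor gene, fell from 6.88 and 7.83 to 1.17 and 1.23 and Erbb3, of the EGF receptor family, from 16.8 and 16.1 to 7.86 and 8.69. Of 12 genes of LIF, KIT and EGF receptor signalling 4 rose and 2 fell (2 to 3 and 1 to 2 with 1 EV library left out). That is 33.3% and 16.7%. Socs3, the feedback inhibitor of LIF signalling, rose by 1.16 (SE 0.15), from 27.8 and 30.9 to 65.8 and 67.4. Among 31 Wnt genes 7 rose and 2 fell (2 to 3 and 1 with 1 EV library left out). That is 22.6% and 6.5%, and 20 of the 31 had at least 1 FPKM in both day 2 EV libraries. The ligand gene Wnt7b fell from 9.99 and 11.6 to 1.18 and 1.24, a difference of -2.41 (SE 0.31). Porcn, whose enzyme readies Wnt proteins for secretion, rose from 15.9 and 18.9 to 32.4 and 36.7. The retinoic acid receptor gene Rarb rose from 0.21 and 0.20 to 1.95 and 1.89. Of the retinoic acid genes tested 21.4% rose and 14.3% fell. Of 14 retinoic acid genes 3 rose and 2 fell (1 to 2 each with 1 EV library left out).

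Epithelial genes went both ways. Of 29 tested genes of adhesion and epithelial state 9 fell and 6 rose (6 to 9 and 3 to 5 with 1 EV library left out), with a median of -0.02. That is 31.0% and 20.7%, against 10.5% and 13.3% of all genes. Esrp1 and Esrp2, which encode splicing regulators of epithelial cells, fell by 2.13 (SE 0.22) and 2.7 (SE 0.25). Esrp2 read 23.7 and 23.4 FPKM at day 2 and 3.02 and 2.56 at day 6. The tight junction genes Cldn4 and Cldn7 fell by 1.92 and 1.06, and Epcam by 0.72, from 113 and 111 to 68.7 and 66.8. Krt19, a keratin gene of simple epithelia, went against them and rose from 2.25 and 4.04 to 18.5 and 13.7. Among 16 genes of the extracellular matrix 6 rose and 2 fell (4 and 1 with 1 EV library left out). Col4a1 and Col4a2, neighbouring genes for the chains of basement membrane collagen, rose by 3.22 (SE 0.21) and 2.94 (SE 0.22), Col4a1 from 1.97 and 1.85 to 29.7 and 23.1. Fn1, the fibronectin gene, rose from 86.0 and 93.8 to 174 and 178, and Col18a1 fell by 1.16 (SE 0.11) from 215 and 198 to 91.4 and 92.2.

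Some genes for presenting antigen rose. H2-Ab1, a chain of MHC class II, read 0.27 and 0.19 FPKM at day 2 and 29.1 and 19 at day 6 and rose by 4.32 (SE 0.26, adjusted p = 2.74e-05). The class I genes H2-D1 and H2-K1 rose by 3.28 (SE 0.23) and 3.08 (SE 0.34), H2-D1 from 7.55 and 6.83 to 87.8 and 70.3. These class I genes have near-identical relatives, so the division of reads among them is uncertain. Tap2, part of the pump that loads class I with peptides, read 0.25 and 0.23 and then 4.62 and 3.36. B2m, the shared light chain of class I, read 5.37 and 4.67 and then 12.1 and 11.1 (adjusted p = 0.0798), and Cd74, the class II chaperone, 5.48 and 5.86 and then 13.1 and 8.50 (adjusted p = 0.0762). Of 14 genes 6 rose and 1 fell (4 to 5 and 0 to 1 with 1 EV library left out), and without the first dTAG13 library 12 rose. The main fit called 42.9% higher and 7.1% lower, against 13.3% and 10.5% of all genes. The list held 10 genes with at least 1 FPKM in both day 2 EV libraries. The blood marker Ptprc was not analysed here, and Spi1, a blood transcription factor gene, read 0.14 and 0.11 at day 2 and 1.14 and 1.59 at day 6.

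Hox genes, which pattern the body axis, were low. Of 39 Hox genes, 8 could be tested, of which none had 1 FPKM in both day 2 EV libraries. They passed the filter through libraries in which they were higher, so a count of calls among them is not read as a result. Hoxa10 read 0.26 and 0.27 FPKM and then 2.77 and 3.18, and Hoxd1, listed at 0 in both day 2 libraries, read 1.06 and 1.495. Hoxb13 read 0.38 and 0.43 and then 6.59 and 3.97. Among 18 tested genes of the primitive streak and mesoderm 5 rose and 2 fell (3 to 5 and 1 with 1 EV library left out). That is 27.8% and 11.1%, against 13.3% and 10.5% of all genes. Of these 18, 12 had at least 1 FPKM in both day 2 EV libraries, so others entered the test through a higher level elsewhere. Isl1, of heart and amnion progenitors, read 0.06 and 0.33 and then 2.23 and 2.54. Nkx2-5, a heart gene, read 0.49 and 0.15 and then 3.25 and 2.38. The smooth muscle genes Tagln and Acta2 fell by 2.06 and 1.49, Tagln from 5.39 and 3.77 to 0.31 and 0.33.

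In each of the stress, metabolic and imprinted lists most members did not pass. The shares higher and lower were 14.3% and 21.4% for p53 targets and 23.8% and 9.5% for ATF4 genes. They were 3.3% and 21.7% for oxidative phosphorylation, and 12.1% and 3.0% for imprinted genes. Over all genes they were 13.3% and 10.5%. Ddit4, an inhibitor of mTOR signalling that several stresses induce, rose from 1.40 and 2.17 FPKM to 11.8 and 11.5, a difference of 2.198 (SE 0.24), and Ddit3, a transcription factor of the ATF4 program, from 6.76 and 8 to 28.0 and 28.4, a difference of 1.80 (SE 0.15). Of 28 p53 targets 4 rose and 6 fell (2 to 3 and 1 to 3 with 1 EV library left out). Of 21 ATF4 genes 5 rose and 2 fell (1 to 3 and 0 to 1). Perp, a p53 target that holds desmosomes together, fell by 1.49 from 82.1 and 88.4 to 28.0 and 31.7. Of 60 oxidative phosphorylation genes 13 fell and 2 rose (3 to 8 and 0 with 1 EV library left out), with a median of -0.14. With quantile normalization that median was 0.09, with 4 genes lower and 9 higher. Atp5g1, of the ATP synthase rotor, fell by 0.61 (SE 0.09), from 801 and 782 to 515 and 524. Among 25 sterol synthesis genes 5 rose and none fell (3 with 1 EV library left out), with Msmo1 at 49.5 and 63.0 and then 115 and 130. Of 33 imprinted genes 4 rose and 1 fell (0 to 3 and 0 to 1 with 1 EV library left out).

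**Figure D4:**
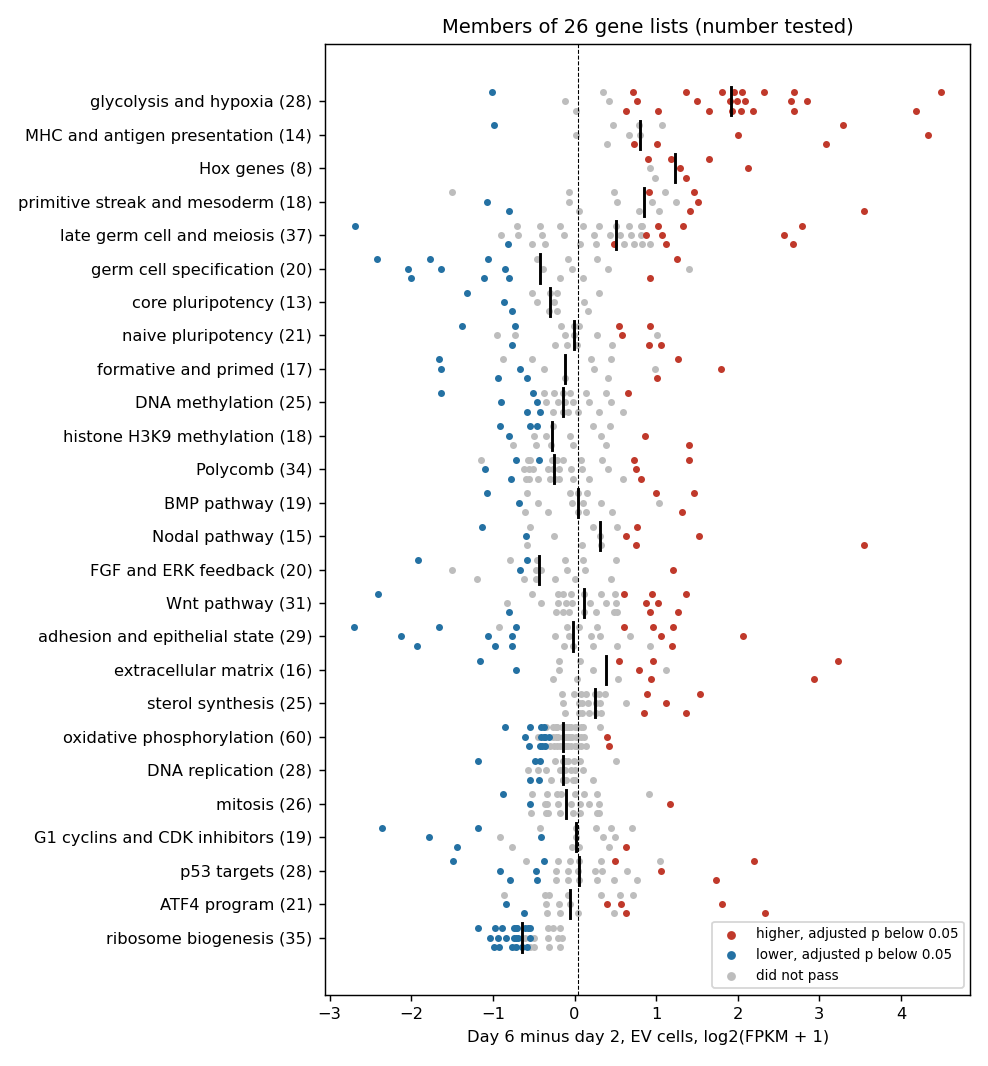
Difference between day 6 and day 2 in EV cells for the tested members of 26 gene lists, 1 point per gene on the log2(FPKM + 1) scale; vertical bars are list medians, the dashed line is the median of all genes, and colours mark genes called higher or lower. Glycolysis and hypoxia genes centre at 1.91 and ribosome biogenesis genes at -0.65.

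The largest differences of single genes reached beyond these lists. Ndufa4l2, which replaces a subunit of a respiratory complex and is a known HIF target, rose by 6.06 (SE 0.69, adjusted p = 0.000428), from 0.35 and 0.48 FPKM to 93.8 and 92.3. A2m, a secreted protease inhibitor gene, rose from 0.12 and 0.18 to 31.9 and 29.8 (4.79, SE 0.23), and Bhlhe40, a transcriptional repressor gene, from 1.66 and 2.08 to 57.4 and 55.4 (4.33, SE 0.41). Copz2, of the coat of Golgi vesicles, rose by 4.18 and Crtac1 by 4.13. Adm, the hormone adrenomedullin, rose from 0.50 and 0.54 to 23.4 and 23.7, and Mgarp, a mitochondrial protein gene, from 3.33 and 2.59 to 49.0 and 49.5. Pgm2 rose by 3.89. These 8 genes were picked for large differences between libraries that did not overlap, so their separation is part of the choice.

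Among genes that fell, Gpx2, a glutathione peroxidase of epithelia, read 82.4 and 80.2 FPKM at day 2 and 6.60 and 4.96 at day 6 (-3.61, SE 0.23, adjusted p = 2.75e-05). Plac8 fell from 30.8 and 32.3 to 2.37 and 1.88, and the aldehyde dehydrogenase gene Aldh3b2 from 14.8 and 14.98 to 0.64 and 0.78. Myl9, a myosin light chain gene of smooth muscle, fell by 3.05 (SE 0.46), Fgfbp1 by 2.83 and Lad1, of epithelial anchoring filaments, by 2.82. Spink1 fell by 3.19, Serpinb9b by 2.61 and Slc40a1, the iron exporter gene, by 2.53. Bnipl read 23.8 and 21.0 and then 1.90 and 2.59, and its call (adjusted p = 0.0431) was lost without any 1 of the EV libraries (0.131 to 0.193).

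The same interval was measured in OE cells, in libraries that share none with the EV comparison. There 2115 genes rose (17.5%) and 1775 fell (14.7%). Both comparisons come from the same fit, with the same estimate of spread for each gene, so their calls are not independent. Of the 2863 genes called in EV cells, 2759 had the same sign in OE cells (96.4%), against 78.7% of all genes tested. In all, 2122 genes were called in both in the same direction, which is 74.1% of the EV calls and 54.6% of the OE calls, and 13 in opposite directions. The median difference of the glycolysis and hypoxia list was 1.68 in OE cells, beside 1.91 in EV cells, and that of ribosome biogenesis was -0.72 beside -0.65. Each of the 35 ribosome biogenesis genes was lower at day 6 in OE cells too. The second day 2 OE library already read 51.6 FPKM for Slc16a3 and 51.6 for Bnip3, where the first read 11.8 and 11.6.

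The difference between the 2 intervals was itself tested, and 28 genes passed (0.232%), 20 with a higher difference in EV cells (0.166%) and 8 with a lower one (0.0663%), or 1339 without the first dTAG13 library and 2 to 7 with 1 EV or OE library left out. Id3 was the clearest. It went from 302 and 283 FPKM to 180 and 183 in EV cells and from 280 and 260 to 33.1 and 32.6 in OE cells, a difference of 2.32 between the intervals (SE 0.13, adjusted p = 0.000117). Lefty1 went from 230 and 195 to 305 and 352 in EV cells and from 213 and 228 to 99.2 and 73.1 in OE cells (adjusted p = 0.0229 for the difference). Dnmt3l read 32.7 and 37.0 at day 6 in EV cells and 10.6 and 8.83 in OE cells, after 51.3 and 40.1 and 47.5 and 42.9 at day 2 (adjusted p = 0.0165). With 1 library left out the difference of Id3 passed in each of 8 fits, that of Lefty1 in 0 and that of Dnmt3l in 1, with largest adjusted p of 0.195 and 0.134. For Stra8 the interval gave 2.68 in EV cells and 4.22 in OE cells, for Kit 1.26 and 1.89 and for Dnmt3b -1.63 and -2.66, and none of these differences passed (adjusted p = 0.143, 0.30 and 0.0607).

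**Figure D5:**
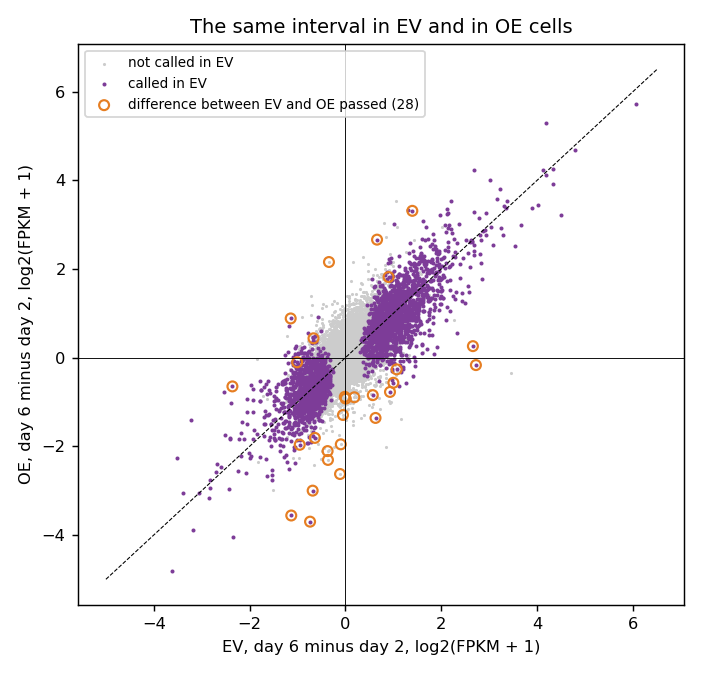
Difference between day 6 and day 2 of each tested gene in EV cells (x axis) and OE cells (y axis), on the log2(FPKM + 1) scale; genes called in EV cells are coloured, rings mark the 28 genes whose difference between EV and OE passed, and the dashed line marks equal differences. Most genes called in EV cells lie on the same side of 0 in OE cells.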

How the data were processed

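RNA of sorted PGCLCs was sequenced after poly(A) enrichment, per the labels' protocols. Per the submitters' processing notes, FastQC 0.10.1, Trim Galore 0.6.3, cutadapt, STAR 2.7.6a, Cufflinks 2.2.1 and the build mm10 were used. The authors deposited 1 table of FPKM values for 12955 genes in 12 libraries (6 groups of 2). Its lowest value is 1, and 90.1% of values from 1.1 to 2 carry 7 or more digits against 0% of those from 2 to 10, so an added 1 was inferred and subtracted. Read depth is not given in the sources used here.

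Genes with 1 FPKM or more in at least 2 of the 12 libraries (12059) were tested on log2(FPKM + 1), pseudocount 1, with limma 3.58.1 in R 4.3.3. One fit took in the 6 groups, with 6 residual degrees of freedom and a trended prior variance (3.86 prior degrees of freedom). Benjamini-Hochberg adjustment ran over all tested genes. The difference of the EV and OE intervals was a contrast of the same fit. Standard errors are those of the model. Same-numbered EV libraries were not stated to be paired. The members and lists were chosen with earlier results of these data known. Named genes were Tex10 and Itgb3, the 12 largest changes per direction with non-overlapping libraries and at least 5 FPKM on average in the higher group, up to 6 called members per list (or 2 by level where none was called), a list of known germ cell genes, and 5 per direction for the difference between intervals. Aldoa, Alpl, Asz1, B2m, Car9, Cd74, Cdkn1a, Cldn7, Egln1, Epcam, Esrrb, Gpi1, Hif1a, Hk1, Hk2, Ifitm3, Las1l, Ldha, Ncl, Nol9, Npm1, Pdk1, Pelp1, Pfkl, Pfkp, Pgk1, Polr1b, Senp3, Slc16a1, Slc2a1, Slc2a3, Tpi1, Ubtf, Uty, Vegfa, Zfp42 and the genes under the closing observations were named after their values were seen. Some items are not reported here. Lists were described by counts and medians, without a test of the list. Promoter windows came from RefSeq's annotation of GRCm38.p6. Motifs were searched on both strands. The script was tested on simulated data. Alternatives covered the pseudocount, the filter, 2 scalings, the replicate block, other sets of libraries, the prior, sample weights, the threshold and leaving out each library. Python 3.11.15, pandas 2.3.3, numpy 2.4.6 and matplotlib 3.10.9 were used.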

Additional observations from a re-analysis of the deposited data

Results flagged for a closer look

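For 14 named genes the change from day 2 to day 6 differed between EV and OE cells by the test of the difference itself (limma, adjusted p below 0.05). Values below are the EV change minus the OE change on the log2(FPKM + 1) scale. The clearest was Id3, the BMP target, at 2.32, followed by Trh, the gene for thyrotropin-releasing hormone, at 2.96. Both passed in each of the 8 fits that leave out 1 EV or OE library. The other 12 lost the call in at least 6 of those fits, with largest adjusted p from 0.121 (Gadd45g) to 0.308 (Trib3). Trh read 135 and 133 FPKM at day 2 and 68.6 and 92.8 at day 6 in EV cells, and 296 and 316 and then 26.5 and 19.3 in OE cells.

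Gadd45g and Gadd45b, which respond to stress and DNA damage, were negative, at -2.50 and -2.002. Gadd45g read 21.7 and 26.9 and then 23.6 and 15.02 in EV cells, against 9.26 and 9.36 and then 50.3 and 40.2 in OE cells. The Nodal inhibitor gene Lefty1 stood at 1.99, the methylation cofactor gene Dnmt3l at 1.74 and Trib3, of the ATF4 program, at 1.42. Gstm3, a glutathione transferase gene, stood at -2.03, Tuba3b at -1.92 and Krtdap at -1.71. Enox1 stood at 2.43, and Aoah at 2.51. Aoah read 14.6 and 18.4 and then 14.0 and 16.2 in EV cells, and 19.7 and 16.8 and then 1.95 and 2.29 in OE cells. The gene model Gm21283, listed at 0 in both day 2 EV libraries, stood at 2.40.

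Rpph1, an RNA without a poly(A) tail, stood at 2.89. It read 4.91 and 2.65 FPKM at day 2 and 35.4 and 24.8 at day 6 in EV cells, and 18.9 and 24.8 and then 24.9 and 14.7 in OE cells. Tuba3b has a close copy, between which reads may have been divided. The 2 intervals share no library.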

How the results depend on the processing

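Of 211 named genes called, 109 kept their call and direction under each of 15 alternatives and 102 lost it under at least 1. The 2863 calls (1600 higher, 1263 lower) became 5395 (3081, 2314) in a fit to the 4 EV libraries, 6153 (3494, 2659) with the 8 EV and OE libraries, 6286 (3549, 2737) without the first dTAG13 library, 5581 (3170, 2411) with sample weights and 1408 (812, 596) at adjusted p below 0.01. Requiring 5 FPKM left 997 higher. Called genes on the lists were 261, and 416, 451, 454, 425 and 155 in those 5 settings. The 28 genes differing between EV and OE intervals became 151 with quantile normalization, 49 with median-ratio scaling, 1172 with 8 libraries, 1339 without the first dTAG13 library, 7 without the variance trend, 1275 with weights and 3 at the stricter threshold. With 1 EV library left out, called genes ranged from 1138 to 1549, higher from 691 to 868, lower from 447 to 701 and list genes from 131 to 172, and with 1 EV or OE library left out, EV minus OE genes from 2 to 7; the lone library is then assumed to vary like the other groups. The cause was not tested. Higher genes were 55.9% of calls, 47.8% with quantile normalization and 44.5% with 5 FPKM.

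Genes that changed sign were not called: Eif2s3y (0.014 with quantile normalization). With 1 EV library left out, Eif2s3y ran from -0.19 to 0.056, Ddx3y from -0.22 to 0.54, Sox2 from -0.052 to 0.28, Dnmt3a from -0.30 to 0.070 and Aoah from -0.27 to 0.046. With the replicate block 2741 genes were called. The deviations of same-numbered EV libraries correlated at 0.243, but the labels state no pairing. Depth is unknown, so the precision of low values is too.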

Other observations

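The lists in this section were chosen after their values were seen, so their counts describe and do not test. Genes that modify and link collagen moved beside the rise of Col4a1 and Col4a2. Of 10 tested, 8 rose and none fell (6 to 7 with 1 EV library left out). That is 80%, against 13.3% of all genes. Of these 10, 8 had at least 1 FPKM in both day 2 EV libraries, so others entered the test through a higher level elsewhere. Loxl2, a crosslinking enzyme gene and among those others, read 0.042 and 0.034 FPKM at day 2 and 6.76 and 6.38 at day 6. Plod2, which hydroxylates lysines of collagen, read 7.70 and 8.74 and then 40.5 and 45.2, and P4ha2, the sister gene of P4ha1, 5.82 and 4.86 and then 61.4 and 50.1. Glycogen genes also rose, 7 of 12, with 5 to 6 when 1 EV library was left out. The share was 58.3%, against 13.3% of all genes. Of these 12, 7 had at least 1 FPKM in both day 2 EV libraries, so others entered the test through a higher level elsewhere. Gys1, the synthase gene, read 28.3 and 22.0 and then 55.0 and 55.8. The branching enzyme gene Gbe1 read 4.37 and 3.75 and then 13.6 and 17.9. Among 12 genes of mitochondrial turnover and HIF-linked mitochondrial subunits, 7 rose (5 to 6 with 1 EV library left out). This too is 58.3%, and 10 of the 12 had at least 1 FPKM in both day 2 EV libraries. Cox4i2, the isoform used at low oxygen, did not: it was at 0.41 and 0 at day 2 and read 13.1 and 8.97 at day 6.

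Some genes of protein synthesis and breakdown fell by small steps, and most did not pass. Of 84 cytosolic ribosomal protein genes 22 fell (26.2%, against 10.5% of all genes) and 3 rose, with a median of -0.25 (4 to 9 fell with 1 EV library left out, and the median was -0.06 with quantile normalization). Rps13 read 930 and 861 FPKM at day 2 and 523 and 548 at day 6. Rpl39l, a paralogue used in testis, was among the 3 that rose, from 28.2 and 24.4 to 46.5 and 61.0. Of 75 mitochondrial ribosomal protein genes 23 fell (30.7%) and none rose, and of 42 proteasome genes 19 fell (45.2%) and none rose (6 to 11 and 4 to 10 with 1 EV library left out). With quantile normalization 20 and 9 of these fell, and the proteasome median went from -0.33 to -0.13. Mrpl12 read 289 and 263 and then 167 and 151, and the proteasome subunit gene Psmb4 247 and 217 and then 128 and 136. Ribosomal protein genes have many processed copies, so the division of reads is uncertain.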
